A study of Homo sapiens with 6 samples.

Results

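The 47 genes described here encode proteins of homologous recombination, of the Fanconi anaemia pathway and of mismatch repair, together with the checkpoint kinases that act beside them. They were chosen by symbol, and each of the 47 symbols matched 1 of the 58735 genes in the deposited count table. Messenger RNA was sequenced from 1 established human line, MOLM-13, which models monocytic acute myeloid leukaemia and is known to carry both a FLT3 internal tandem duplication and KMT2A-MLLT3. All cultures have the genotype label WT. The 8p group held 3 libraries from cells treated with 3.5 nM of the compound 8p, described as inhibiting both RET and CDK kinases (RET/CDK8i in the treatment label), with a stated IC50 of 7 nM. The control group held 3 libraries from untreated cells, and both groups were incubated for 48 hours. The submitters describe the 3 replicates as independent and biological. Whether controls received the solvent of 8p is not stated, and any effect of a solvent cannot be told apart from that of 8p.

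The 8p libraries held 14972069 to 16210861 counts and the control libraries 18834611 to 23485628. Over all genes tested, the second principal component (4.61% of the variance) separated 8p replicate 2 from 8p replicates 1 and 3. Without that library 36 of the 47 genes described here were called lower and 1 higher. Mitochondrially encoded genes took 6.42% to 10.004% of counts with 8p and 1.64% to 1.91% in controls. With those genes left out of the TMM scaling, 38 of the 47 genes were again called lower and 1 higher. The part of depth in the results was not tested. Of 10 markers of myeloid leukaemia cells, LYZ averaged 3732 ± 369 CPM with 8p and 1040.2 ± 60.03 CPM in controls and CD33 69.5 ± 5.71 CPM with 8p and 98.3 ± 6.56 CPM in controls (SD, n = 3 each). SPI1, FLT3 and MPO were also abundant, and CD68 had no count with 8p and at most 6 counts per control library. MPO averaged 88.5 CPM with 8p and 138 CPM in controls, and FCGR1A 8.11 CPM with 8p and 51.9 CPM in controls. ITGAM was low in both groups, at 3.57 CPM with 8p and 4.24 CPM in controls. Of the 9 myeloid markers tested, 3 were called lower and 5 higher, beside 36.9% and 37.9% of all genes tested. The erythroid markers HBB and HBA1, the epithelial marker EPCAM and the fibroblast markers COL3A1 and DCN had no count in any library, whereas the 3 fibroblast markers summed to 25.6 to 37.6 CPM with 8p and 0.218 to 0.801 CPM in controls, all of it from COL1A1. The 4 markers of T and NK cells summed to 29.1 to 37.9 CPM with 8p and 20.8 to 24.6 CPM in controls. NKG7 made up most of that sum, at 34.0 ± 4.55 CPM with 8p and 19.8 ± 1.25 CPM in controls, whereas CD3D averaged 0.481 ± 0.287 CPM with 8p and 3.01 ± 0.644 CPM in controls, and CD3E and CD2 had at most 2 counts in a library. Summed markers of B cells were at 1.498 to 2.29 CPM with 8p and 1.35 to 1.64 CPM in controls, and epithelial ones were at 1.68 to 2.60 CPM with 8p and 0.514 to 1.26 CPM in controls. The myeloid markers summed to 4601 to 5258 CPM with 8p and 1895 to 2024 CPM in controls, and LYZ made up most of that sum in both groups. The part of these markers in the results was not tested.

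Homologous recombination repairs a DNA double-strand break by copying an intact sister chromatid. The ends are recognised and trimmed, a recombinase filament is loaded onto the single strand, the filament invades the sister, and the joined molecules are then separated. The Fanconi pathway unhooks crosslinks between DNA strands by attaching ubiquitin to a protein pair at the stalled fork, and mismatch repair removes copying errors behind the fork. Many genes of these pathways are transcribed most in S and G2 phase, when a sister chromatid is present. Germline defects in the Fanconi genes cause bone marrow failure and a predisposition to acute myeloid leukaemia.

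Most of the 47 genes had lower transcript levels after 8p. All 47 passed the filter on low counts, and 38 fell, 1 rose and 8 did not pass the test (edgeR quasi-likelihood test over 13822 genes, adjusted p under 0.05). Over all genes tested 36.9% were called lower, 37.9% higher and 74.7% in either direction. The exonuclease gene EXO1 and the ubiquitin-conjugating enzyme gene UBE2T fell most, to levels 16.7-fold and 14.0-fold below controls, and the damage kinase gene ATM was the gene that rose. The median log2 fold change of the 47 genes was −1.28, beside 0.03 for all genes tested, and summed over the 47 genes the level was 911 ± 5.33 CPM with 8p and 2078 ± 25.2 CPM in controls (SD, n = 3 each). In bulk RNA, fewer cells in S and G2 phase and less of a transcript in each cell cannot be told apart.

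Of the 38 genes that fell, 15 fell at least 4-fold, 15 between 2-fold and 4-fold and 8 less than 2-fold. A fall of at least 2-fold was called for 17.5% of all genes tested, beside 30 of these 47. All 3 values with 8p lay below all 3 control values for 38 of the 47 genes, a pattern seen in 38% of all genes tested. Of the 47 genes 21 were among the lowest 10% of all log2 fold changes, and 13 were among the lowest 5%. The plot of fold changes by role shows that the size of the fall varied within roles, most widely in end recognition and resection.

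**Figure D1:**
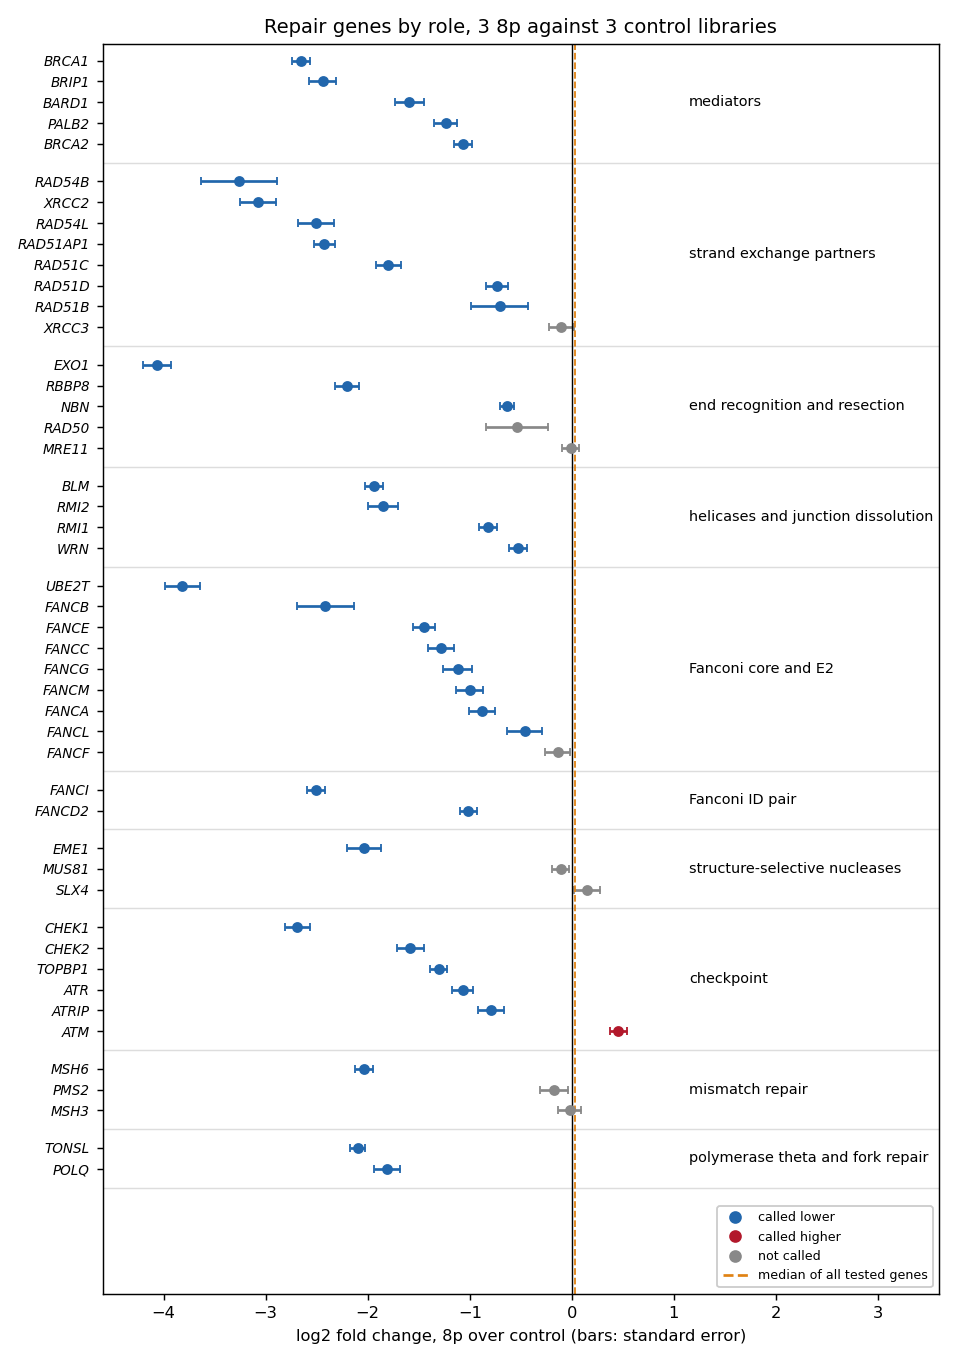
Log2 fold change of each of the 47 genes, 8p over control, on the horizontal axis, with genes grouped by role down the page; points are edgeR estimates from 3 8p and 3 control libraries and bars are standard errors. Values run from −4.07 for EXO1 to 0.46 for ATM, and the dashed line marks the median of all genes tested, 0.03.

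Promoter windows from RefSeq (GRCh38.p14), 250 bases before to 50 after a transcription start, were found for 41 of the 47 genes, with 58 windows in all. They are shown for the genes at both ends of the range, to set the letters of the start region beside the fold change. E2F factors, which drive S phase genes, bind variants of the octamers TTTCCCGC, TTTCGCGC, TTTGCCGC and TTTGGCGC. At least 1 of these octamers on either strand was found in 10 of the 41 genes (24.4%, 95% Wilson interval 13.8% to 39.3%), beside 3.99% of all 27305 genes with a window. The 10 genes were EXO1, XRCC2, MSH6, TOPBP1, FANCC, FANCD2, FANCA, RMI1, PMS2 and MSH3. Of the matched genes, 8 of the 32 that fell held an octamer, and so did 2 of the 9 others, PMS2 and MSH3. The median log2 fold change was −1.15 for the 10 genes with an octamer and −1.23 for the 31 without. In the 250 bases before the start alone, 12.2% of the 41 genes held an octamer. A CCAAT box (CCAAT) was found in 48.8% of the 41 genes and 39.7% of all genes. A CHR hexamer (TTTGAA or TTCGAA), an element of genes expressed in G2 and mitosis, was found in 12.2% and 19.5%, and an exact match to the NRF1 site in 4.88% and 1.52%.

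The windows of EXO1 (chr1:241847954-241848253, plus strand) and XRCC2 (chr7:152676092-152676391, minus strand) belong to the genes with the largest fall that held an octamer. That of UBE2T (chr1:202341887-202342186, minus strand) belongs to the gene with the largest fall that held none, and that of ATM (chr11:108222817-108223116, plus strand, 1 of 2 windows) to the gene that rose. The window of MSH3 (chr5:80654402-80654701, plus strand) was added after its values were seen, because it holds 2 overlapping octamers beside a level that was not called changed. Capitals mark the octamers in EXO1, XRCC2 and MSH3, and CCAAT boxes and a CHR hexamer in UBE2T and ATM. All are written 5′ to 3′ on the gene's strand, with matches to a motif's reverse complement also in capitals.
EXO1: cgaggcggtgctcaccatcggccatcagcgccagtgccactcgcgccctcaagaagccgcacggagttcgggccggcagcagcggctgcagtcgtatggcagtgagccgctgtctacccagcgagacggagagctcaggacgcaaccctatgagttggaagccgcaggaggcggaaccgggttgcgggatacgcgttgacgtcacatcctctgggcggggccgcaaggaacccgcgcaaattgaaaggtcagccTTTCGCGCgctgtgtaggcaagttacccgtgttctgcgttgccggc
XRCC2: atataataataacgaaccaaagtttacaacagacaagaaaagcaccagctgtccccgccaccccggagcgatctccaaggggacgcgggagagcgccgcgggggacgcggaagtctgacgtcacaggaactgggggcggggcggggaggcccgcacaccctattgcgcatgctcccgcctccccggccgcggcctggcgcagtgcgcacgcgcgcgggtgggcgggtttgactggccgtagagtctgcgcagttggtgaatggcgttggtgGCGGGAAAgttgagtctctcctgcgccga
UBE2T: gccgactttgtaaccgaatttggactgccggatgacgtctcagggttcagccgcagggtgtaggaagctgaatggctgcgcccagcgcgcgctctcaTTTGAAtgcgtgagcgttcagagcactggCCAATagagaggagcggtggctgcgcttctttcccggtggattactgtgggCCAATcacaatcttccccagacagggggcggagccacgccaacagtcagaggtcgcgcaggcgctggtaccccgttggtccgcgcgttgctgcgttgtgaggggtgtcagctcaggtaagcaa
ATM: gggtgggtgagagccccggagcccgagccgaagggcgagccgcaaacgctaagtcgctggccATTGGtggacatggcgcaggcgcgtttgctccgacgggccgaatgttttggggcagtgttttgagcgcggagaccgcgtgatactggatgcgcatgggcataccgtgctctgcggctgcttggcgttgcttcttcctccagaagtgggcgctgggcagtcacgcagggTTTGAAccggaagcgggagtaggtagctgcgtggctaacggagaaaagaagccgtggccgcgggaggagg
MSH3: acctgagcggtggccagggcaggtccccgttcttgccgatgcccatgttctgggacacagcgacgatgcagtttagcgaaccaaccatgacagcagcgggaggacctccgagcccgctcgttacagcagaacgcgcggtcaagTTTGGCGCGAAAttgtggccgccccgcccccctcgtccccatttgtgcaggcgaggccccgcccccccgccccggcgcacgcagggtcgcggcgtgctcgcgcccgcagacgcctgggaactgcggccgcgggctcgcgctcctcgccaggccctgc

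The mediators, which bring the recombinase to broken DNA, all fell (5 of 5, median log2 fold change −1.59). BRCA1 (GRCh38 chromosome 17, 43044295 to 43170245, minus strand), a ubiquitin ligase subunit that promotes resection and recruits PALB2, had 11.9, 13.2 and 12.01 CPM with 8p, against 77.9, 79.2 and 77.2 CPM in controls (log2 fold change −2.66, SE 0.09, adjusted p = 7.61e-13). The helicase BRIP1, which binds BRCA1, had 5.59, 6.23 and 7.62 CPM with 8p, against 39.1, 32.8 and 33.7 CPM in controls (log2 fold change −2.44, SE 0.13, adjusted p = 1.66e-10). In both genes the groups were far apart and the libraries of each group close together. BARD1, the obligate partner of BRCA1 in the ligase, had 10.1, 7.55 and 12.2 CPM with 8p, against 31.7, 29.5 and 28.6 CPM in controls (log2 fold change −1.59), with its lowest 8p value in replicate 2. PALB2, the bridge between BRCA1 and BRCA2, fell by 1.23 on the log2 scale and BRCA2, which loads the recombinase, by 1.07.

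Among the genes whose products assist strand exchange, 7 of 8 fell and XRCC3 was not called (median −2.11). RAD54B, a motor protein related to RAD54L, had 0.532, 0.180 and 0.877 CPM with 8p, against 5.78, 4.25 and 5.06 CPM in controls (log2 fold change −3.26, SE 0.37, adjusted p = 1.01e-06), on only 8, 3 and 13 counts in the 8p libraries. XRCC2, a recombinase paralog, had 1.80, 2.64 and 3.51 CPM with 8p, against 22.6, 21.7 and 22.7 CPM in controls (log2 fold change −3.08, SE 0.18, adjusted p = 4.12e-10). Without 1 library at a time and under the other settings tried, the fold change of RAD54B ran from −3.85 to −2.86 and that of XRCC2 from −3.34 to −2.89. RAD54L, the main motor of strand invasion, had 3.66, 2.46 and 3.98 CPM with 8p, against 20.4, 20.2 and 16.5 CPM in controls (log2 fold change −2.51). Its groups were separate, and RAD51AP1, which stimulates joint molecule formation, fell by 2.43 on the log2 scale.

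The recombinase paralogs form 2 complexes, one of RAD51B, RAD51C, RAD51D and XRCC2 and one of RAD51C and XRCC3. RAD51C had 10.8, 10.1 and 14.0 CPM with 8p, against 38.2, 39.8 and 43.3 CPM in controls (log2 fold change −1.80, SE 0.12, adjusted p = 1.90e-09), whereas XRCC3 had 16.4, 19.3 and 21.5 CPM with 8p, against 19.1, 20.8 and 21.4 CPM in controls (log2 fold change −0.10, SE 0.12, adjusted p = 0.448). The groups were separate for RAD51C and overlapped for XRCC3. RAD51D fell by 0.73 on the log2 scale. RAD51B was called lower (log2 fold change −0.71, SE 0.28, adjusted p = 0.0321) on 25 to 47 counts per 8p library. This call did not hold with DESeq2 (adjusted p = 0.0576), with upper quartile scaling (0.106) and without 8p replicate 2 (0.0827), 8p replicate 3 (0.0541), control replicate 1 (0.0560) or control replicate 3 (0.0950), with all of its alternatives between 0.00526 and 0.106.

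The genes of end recognition and resection split most widely. EXO1 (chromosome 1, 241847967 to 241895148, plus strand), the exonuclease that carries out long-range resection and also serves mismatch repair, had 2.80, 2.10 and 2.36 CPM with 8p, against 43.2, 39.6 and 38.5 CPM in controls (log2 fold change −4.07, SE 0.14, adjusted p = 9.23e-13). RBBP8, which encodes the resection starter CtIP, had 16.3, 10.7 and 12.3 CPM with 8p, against 59.6, 61.2 and 59.8 CPM in controls (log2 fold change −2.20, SE 0.12, adjusted p = 1.94e-10). No 8p library of either gene approached the control range. The end-binding complex of MRE11, RAD50 and NBN behaved otherwise. MRE11, its nuclease, had 50.8, 47.9 and 48.0 CPM with 8p, against 52.3, 46.3 and 49.2 CPM in controls (log2 fold change −0.01, SE 0.08, adjusted p = 0.901), with overlapping groups. NBN, which couples the complex to ATM, fell by 0.63 on the log2 scale (SE 0.07) and remained the gene with the most counts of the 47 in both groups. RAD50, the ATPase of the complex, had 2.13, 1.32 and 2.90 CPM with 8p, against 3.25, 3.50 and 2.39 CPM in controls (log2 fold change −0.54, SE 0.30, adjusted p = 0.119), again with overlap between the groups. The RAD50 values rest on 22 to 43 counts per 8p library and 44 to 77 per control library. Of its exon bases 79.7% are also annotated to a read-through gene on the same strand, AC116366.3, which itself had 1 count in the 6 libraries. RAD50 passed the test without a filter on low counts (adjusted p = 0.0464) and without 8p replicate 3 (adjusted p = 0.0278), within a range of 0.0278 to 0.310 over its alternatives.

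All 4 genes of the helicases and of junction dissolution fell. BLM, the helicase that dissolves double Holliday junctions, had 20.5, 17.9 and 19.7 CPM with 8p, against 74.9, 71.9 and 75.6 CPM in controls (log2 fold change −1.94, SE 0.09, adjusted p = 1.64e-11). RMI2, a small subunit of the BLM complex, had 3.86, 4.49 and 4.18 CPM with 8p, against 15.3, 14.4 and 15.7 CPM in controls (log2 fold change −1.85, SE 0.15, adjusted p = 1.43e-08), and RMI1, its partner there, had 27.4, 31.2 and 27.4 CPM with 8p, against 50.7, 48.5 and 53.0 CPM in controls (log2 fold change −0.82, SE 0.09, adjusted p = 4.94e-07). Both subunits had separate groups, and the estimate for RMI2 was the lower. WRN, a related helicase with an exonuclease domain, fell by 0.53 on the log2 scale (SE 0.08).

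**Figure D2:**
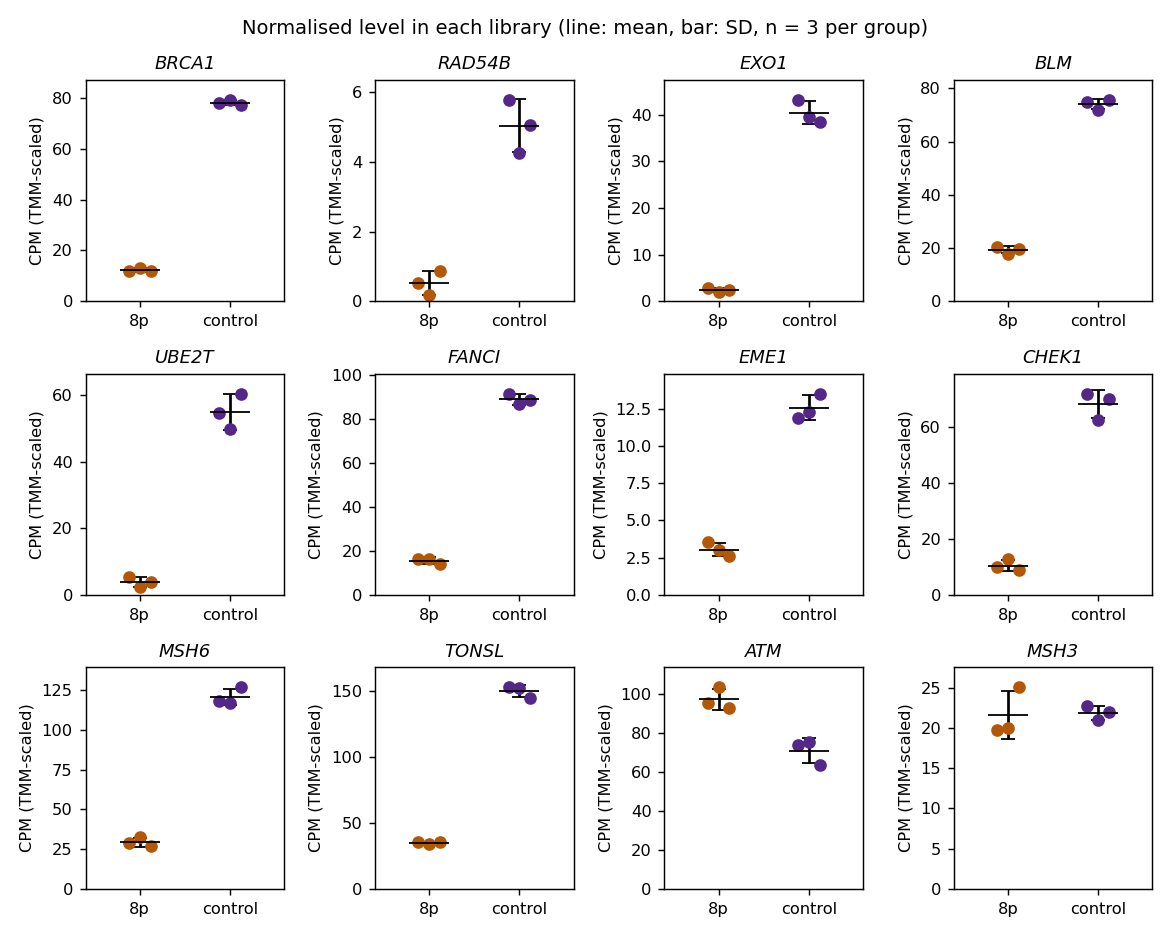
Normalised level (CPM, linear axis from 0) in each library for 12 genes, with 8p left of control; these are the gene with the largest change in each role, with ATM and MSH3 added. Points are libraries, lines means and bars SD (n = 3 each); EXO1 lies at 2.42 ± 0.352 CPM with 8p and 40.4 ± 2.46 CPM in controls, and MSH3 is the panel in which the groups overlap.

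Of the 9 Fanconi core and ubiquitin-conjugation genes, 8 fell and FANCF was not called (median −1.12). UBE2T (chromosome 1, 202331657 to 202341980, minus strand), the enzyme that hands ubiquitin to the Fanconi ligase, had 5.32, 2.52 and 3.91 CPM with 8p, against 54.7, 49.7 and 60.4 CPM in controls (log2 fold change −3.82, SE 0.17, adjusted p = 1.80e-11). FANCB, a core subunit encoded on the X chromosome, had 0.799, 0.719 and 1.35 CPM with 8p, against 4.89, 5.33 and 5.06 CPM in controls (log2 fold change −2.42, SE 0.28, adjusted p = 1.28e-06). FANCF, an adaptor of the core complex, had 15.8, 17.0 and 14.4 CPM with 8p, against 18.3, 15.8 and 17.8 CPM in controls (log2 fold change −0.14, SE 0.12, adjusted p = 0.299). FANCB thus lay below its controls in each 8p library, while the groups of FANCF overlapped. FANCE and FANCC, which form a subcomplex, fell by 1.45 and 1.28 on the log2 scale. FANCG fell by 1.12, the DNA translocase FANCM by 1.00 and FANCA by 0.88. FANCL, the ubiquitin ligase subunit itself, was called lower (log2 fold change −0.46, SE 0.17, adjusted p = 0.0223), although its groups overlapped. The call did not hold under upper quartile factors (adjusted p = 0.156), without 8p replicate 2 (0.0510), without control replicate 3 (0.117) and among protein-coding genes alone (0.0521), in a range of 3.26e-04 to 0.156 over its alternatives.

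FANCD2 and FANCI form the pair that receives ubiquitin, and both fell. FANCI had 16.3, 16.6 and 13.9 CPM with 8p, against 91.4, 86.6 and 88.3 CPM in controls (log2 fold change −2.51, SE 0.09, adjusted p = 1.88e-12), and FANCD2 had 27.0, 28.2 and 26.6 CPM with 8p, against 53.4, 57.6 and 54.1 CPM in controls (log2 fold change −1.01, SE 0.08, adjusted p = 2.00e-08). Each gene's groups were separate, and the estimate for FANCI was the lower.

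Of the structure-selective nuclease genes only EME1 was called. EME1, the non-catalytic partner of MUS81, had 3.53, 3.00 and 2.63 CPM with 8p, against 11.9, 12.2 and 13.5 CPM in controls (log2 fold change −2.04, SE 0.17, adjusted p = 2.51e-08). MUS81, the nuclease subunit, had 37.9, 34.6 and 37.0 CPM with 8p, against 39.0, 39.95 and 39.1 CPM in controls (log2 fold change −0.11, SE 0.08, adjusted p = 0.238): each 8p value lay below each control value, but the gap was small. SLX4, the scaffold that gathers these nucleases, had 22.3, 20.9 and 26.1 CPM with 8p, against 22.3, 23.1 and 16.9 CPM in controls (log2 fold change 0.15, SE 0.13, adjusted p = 0.318), with overlapping groups. With upper quartile scaling SLX4 was called higher (adjusted p = 0.0311, in a range to 0.986 over its alternatives), and MUS81 had a log2 fold change of 0.08.

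The checkpoint genes fell in 5 of 6 cases, and the exception rose. ATM (chromosome 11, 108222484 to 108369102, plus strand), the kinase that responds to double-strand breaks, had 95.5, 103 and 92.9 CPM with 8p, against 73.9, 75.1 and 63.3 CPM in controls (log2 fold change 0.46, SE 0.08, adjusted p = 1.19e-04). All 3 of its 8p values were above all 3 control values, a pattern of 38.9% of all genes tested, and it was called higher under each of its 16 alternatives, at log2 fold changes from 0.34 to 0.64. ATR, the kinase that responds to stalled forks, had 16.7, 20.9 and 19.9 CPM with 8p, against 39.2, 41.1 and 40.5 CPM in controls (log2 fold change −1.07, SE 0.10, adjusted p = 1.00e-07), with each 8p value below each control value. CHEK1, the effector kinase of ATR, had 9.92, 12.8 and 8.77 CPM with 8p, against 71.8, 62.3 and 69.8 CPM in controls (log2 fold change −2.69, SE 0.12, adjusted p = 1.87e-11). CHEK2, the effector kinase of ATM, had 7.59, 9.29 and 7.96 CPM with 8p, against 23.7, 22.9 and 28.0 CPM in controls (log2 fold change −1.58, SE 0.13, adjusted p = 2.67e-08). Both effector genes had separate groups, and the estimate for CHEK1 was the lower. TOPBP1, the activator of ATR, fell by 1.30 and ATRIP, the partner that brings ATR to single-stranded DNA, by 0.79 on the log2 scale.

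In mismatch repair, MSH6 alone of 3 genes was called. MSH6, the subunit that recognises single mismatches, had 28.6, 32.5 and 27.1 CPM with 8p, against 118, 117 and 127 CPM in controls (log2 fold change −2.04, SE 0.09, adjusted p = 8.58e-12). MSH3, its counterpart for larger loops, had 19.8, 20.0 and 25.0 CPM with 8p, against 22.7, 21.0 and 22.04 CPM in controls (log2 fold change −0.02, SE 0.11, adjusted p = 0.874). PMS2, an endonuclease subunit, had 11.2, 13.3 and 14.3 CPM with 8p, against 14.5, 15.8 and 13.4 CPM in controls (log2 fold change −0.18, SE 0.13, adjusted p = 0.245). The groups were separate for MSH6 and overlapped for MSH3 and PMS2. The table also lists 11 PMS2-like copies, which together held 284% of the counts of PMS2, so that reads may be shared and its level is uncertain.

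Both remaining genes fell. TONSL, which binds new chromatin behind the fork and supports recombination there, had 35.6, 34.0 and 35.4 CPM with 8p, against 153, 152 and 145 CPM in controls (log2 fold change −2.10, SE 0.07, adjusted p = 1.16e-12). POLQ, the polymerase of microhomology-mediated end joining, had 11.2, 8.09 and 8.77 CPM with 8p, against 32.7, 32.01 and 33.8 CPM in controls (log2 fold change −1.81, SE 0.13, adjusted p = 2.81e-09). In both genes the libraries of a group lay close together compared with the gap between groups.

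Scaling matters for the genes that were not called. With upper quartile factors the median log2 fold change of all genes was 0.22, against 0.03 with TMM factors, and under that scaling XRCC3, MRE11, FANCF, MUS81, MSH3 and PMS2 had positive fold changes of 0.012 to 0.18, none past the threshold. The log2 fold changes of these 6 genes with TMM factors lay between −0.18 and −0.01.

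Per length, the order of the genes differed between the groups. Levels between genes are compared here as CPM per kilobase of exon. UBE2T had 2.37 ± 0.850 CPM per kilobase with 8p and 33.3 ± 3.25 in controls (SD, n = 3 each), at rank 23 of the 47 genes with 8p and rank 1 in controls. EXO1 stood at rank 42 with 8p and 13 in controls. NBN had 19.8 ± 0.687 CPM per kilobase with 8p and 30.8 ± 1.41 in controls, at rank 1 with 8p and 2 in controls. ATM had 4.05 ± 0.223 CPM per kilobase with 8p and 2.95 ± 0.271 in controls and stood at rank 12 with 8p and 38 in controls. MUS81 had 6.66 ± 0.304 CPM per kilobase with 8p and 7.19 ± 0.0949 in controls, at rank 3 with 8p and 17 in controls. MRE11 had 6.36 ± 0.214 CPM per kilobase with 8p and 6.41 ± 0.388 in controls, at rank 4 with 8p and 20 in controls. The intervals of 1 SD of these neighbours met with 8p, so their order there is not resolved. Of the summed CPM of the 47 genes, NBN and ATM together held 24.1% with 8p and 12.5% in controls. Across the 47 genes the control level per length and the log2 fold change had a Spearman rho of −0.32. It is given as a description over genes that share the same 6 libraries. The control level is also the denominator of the fold change, which by itself pushes rho toward negative values.

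**Figure D3:**
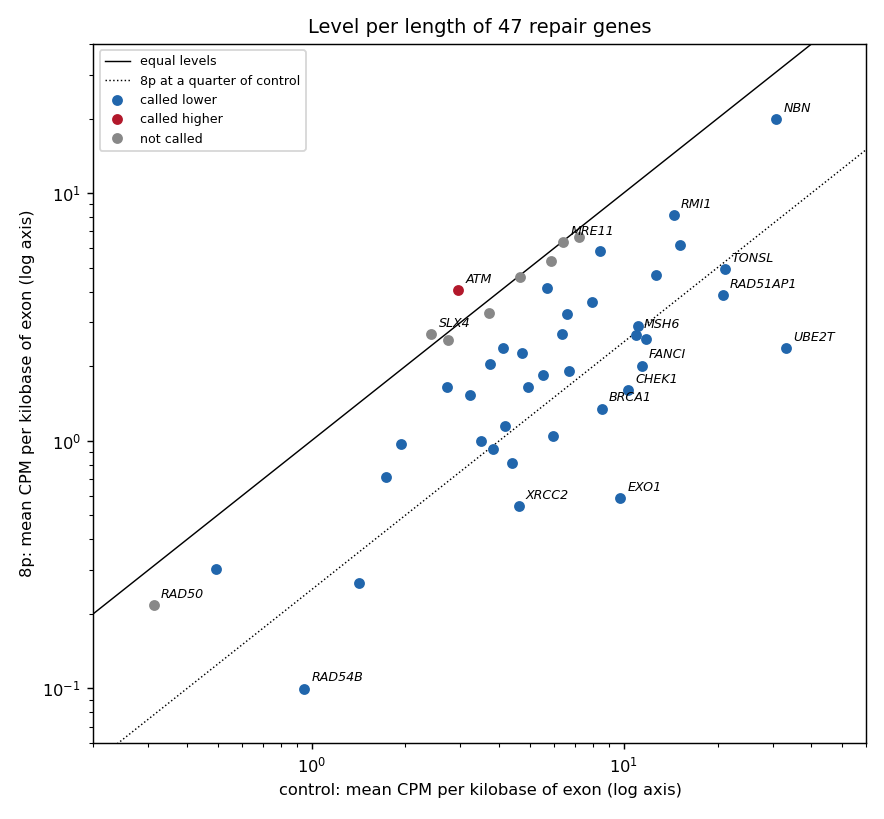
Mean level per length of the 47 genes in 8p libraries (vertical) against control libraries (horizontal), in CPM per kilobase of exon on log axes, coloured by call. The solid line marks equal levels and the dotted line a level 4-fold below control; UBE2T and EXO1 lie below the dotted line, and ATM lies above the solid line.

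Lengths and reads shared with neighbouring genes limit some of these levels. Beside RAD50, exon bases shared with other genes made up 76.7% of XRCC3 and 59.1% of RAD54B. CPM was also divided by the length of the exon bases that no other gene shares, as if no read in shared bases was counted. On that length RAD50 had 1.07 CPM per kilobase with 8p and 1.53 in controls. RAD54B had 0.244 with 8p and 2.31 in controls, and XRCC3 had 10.9 with 8p and 11.7 in controls. The bases that XRCC3 shares belong to a gene on the other strand. Counting by strand would have kept its reads there, and the level over the whole exon length would then apply. Over the whole exon length, XRCC3 had 2.54 ± 0.335 CPM per kilobase with 8p and 2.73 ± 0.159 in controls. Copies listed under pseudogene symbols held few counts apart from those of PMS2: 1 copy of RBBP8 had 5 counts in all, and those of CHEK2, FANCD2, MRE11 and RAD51AP1 had none.

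Ratios between partner genes in a library do not depend on how libraries are scaled, and 12 such pairs were compared. In 8 pairs the 3 ratios with 8p did not overlap the 3 control ratios. The share of gene pairs in general with separate ratios was not computed, so this count has no background beside it. Of single genes tested, 38% had all 3 8p values below all 3 control values and 38.9% had them above. For the 8 separate pairs the exact two-sided permutation p was 0.10, the smallest that 3 against 3 libraries allow. It was 0.15 after Benjamini-Hochberg adjustment over the 12 pairs, so none passed 0.05. In the other 4, PALB2/BRCA2, RAD54B/RAD54L, ATRIP/ATR and FANCC/FANCE, the ratios overlapped (exact permutation p from 0.20 to 0.60). RAD54B over RAD54L was 0.0926, 0.0510 and 0.137 with 8p, against 0.172, 0.128 and 0.186 in controls (log2 difference −0.88, and −1.22 to −0.50 without 1 library at a time).

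MSH3 over MSH6 and EME1 over MUS81 had differences of similar size. The ratio of MSH3 to MSH6 per length was 1.61, 1.44 and 2.16 with 8p, against 0.447, 0.418 and 0.406 in controls, a difference of 2.01 on the log2 scale (mean log2 ratio 0.77 ± 0.30 with 8p and −1.24 ± 0.07 in controls). MSH3 was the more abundant transcript per length in each 8p library and MSH6 in each control library. That order depends on the exon lengths used, 4709 bases for MSH3 and 10993 for MSH6. By counts alone MSH6 exceeded MSH3 in every library of both groups. The ratio of EME1 to MUS81 was 0.156, 0.145 and 0.120 with 8p, against 0.507, 0.510 and 0.575 in controls, a log2 difference of −1.93. EME1 was thus the scarcer transcript in both groups, and further below MUS81 with 8p.

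The ratio of XRCC3 to RAD51C was 1.23, 1.54 and 1.24 with 8p, against 0.405, 0.424 and 0.401 in controls (log2 difference 1.70). For ATM over ATR it was 2.98, 2.58 and 2.43 with 8p, against 0.983, 0.952 and 0.814 in controls (log2 difference 1.54). ATM was the more abundant per length in each 8p library and ATR in each control library. Here too the order depends on the exon lengths used, 23972 bases for ATM and 12496 for ATR. By counts alone ATM exceeded ATR in every library of both groups. The ratio of FANCI to FANCD2 was 0.653, 0.636 and 0.565 with 8p, against 1.85, 1.62 and 1.76 in controls (log2 difference −1.50). FANCD2 was the more abundant of the pair in each 8p library and FANCI in each control library.

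For CHEK2 over CHEK1 the ratio was 1.12, 1.06 and 1.33 with 8p, against 0.482, 0.537 and 0.587 in controls (log2 difference 1.12). For BARD1 over BRCA1 it was 1.29, 0.869 and 1.54 with 8p, against 0.616, 0.565 and 0.561 in controls (log2 difference 1.05). Of the 8 pairs, BARD1 over BRCA1 varied most among 8p libraries, with replicate 2 lowest. RMI2 over RMI1 gave 0.137, 0.140 and 0.148 with 8p, against 0.293, 0.287 and 0.286 in controls (log2 difference −1.03), with the least spread within groups of the 12 pairs.

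**Figure D4:**
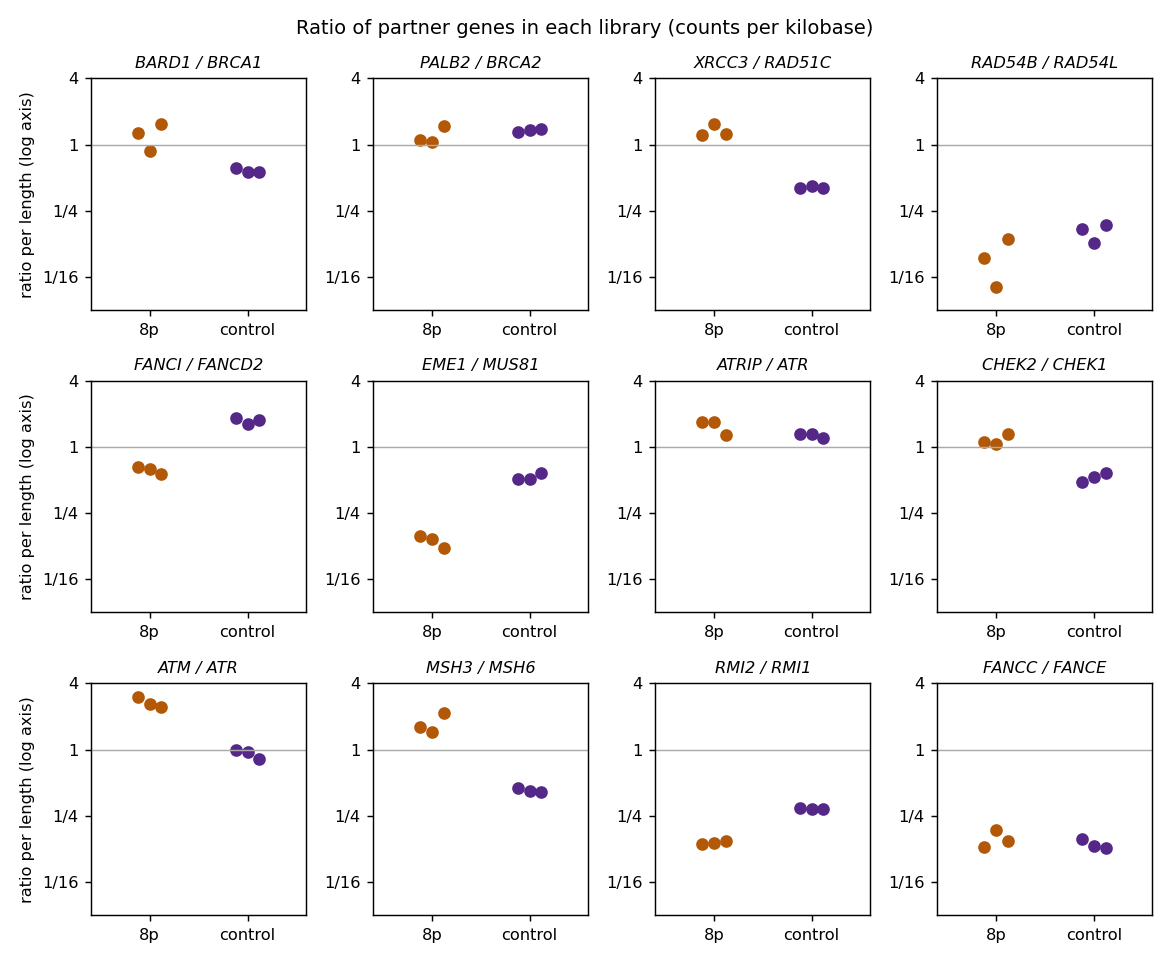
Ratio of 2 partner genes in each library, as counts per kilobase of the first over the second on a log axis, with 8p left of control and 3 libraries per group. The groups are separate in 8 of the 12 panels, and the MSH3 over MSH6 ratio runs from 1.44 to 2.16 with 8p and from 0.406 to 0.447 in controls.

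Some of the 47 genes overlap a neighbour, and whether featureCounts used strand is unknown here, so reads in the shared bases cannot be assigned with certainty. There were 14 overlapping genes with at least 10% of the counts of the repair gene beside them, and several moved unlike it. FBXO11, on the other strand from MSH6, rose (log2 fold change 0.73) where MSH6 fell, and shared 16.2% of the MSH6 exon bases. KLC1, which shares 76.7% of the exon bases of XRCC3, rose by 0.66 on the log2 scale.

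LRRC59, which shares 16.4% of the exon bases of EME1 on the other strand and had 2420% of its counts, fell by 2.30 on the log2 scale, close to the fall of EME1. EME1 had 248 to 282 counts per control library and LRRC59 had 5489 to 7307. Without the strand setting it is not known whether reads of LRRC59 entered the EME1 counts, and this was not tested. Likewise CFL1, which shares 13.9% of the exon bases of MUS81 on the other strand, had 2390% of its counts and fell by 1.02. VRK2, opposite FANCL, fell by 0.81, and ZNF276, opposite FANCA, rose by 0.80. NPAT, opposite ATM, had a log2 fold change of −0.07 and shared 0.597% of the ATM exon bases, and POLG, opposite FANCI, had one of −0.03; neither was called.

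Other repair lists were mixed, as counted in the same test, in which 36.9% of all genes tested were called lower and 37.9% higher. No difference of a list from these shares was tested. Of 36 further recombination and Fanconi genes tested 17 fell and 10 rose (median −0.22); the meiotic recombinase DMC1 and its cofactor gene PSMC3IP had the lowest estimates, −2.74 on 0, 8 and 6 counts in the 8p libraries and −2.52 on 19, 27 and 12. Of 17 end joining genes tested 10 fell and 4 rose (median −0.38), with XRCC6, an end-binding Ku subunit, at 212 ± 7.35 CPM with 8p and 833 ± 61.1 CPM in controls, and APLF, a scaffold of end joining, at 1.89 on the log2 scale. Of 20 base excision and single-strand break genes 14 fell and 3 rose (median −0.74), led by the uracil glycosylase UNG (−4.74) and the flap nuclease FEN1 (−3.34). Of 22 nucleotide excision genes 15 fell and 6 rose (median −0.51), and of 10 translesion genes 5 fell and 3 rose (median −0.06). With upper quartile factors 3 translesion genes were lower and 5 higher, and 11 base excision genes were lower and 5 higher. Without 8p replicate 2, and likewise without control replicate 1, 3 translesion genes were lower and 2 higher.

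The 13 further mismatch repair genes, which are mostly clamp, clamp loader, ligase and single-strand binding factors shared with replication, all fell (median −1.38), led by the clamp loader genes RFC3 (−2.95) and RFC5 (−2.64). All 16 S phase markers fell as well, with a median of −3.39, beside 36.9% of all genes tested called lower. They summed to 590 to 603 CPM with 8p and 3810 to 3955 CPM in controls, and their part in the fall of the 47 repair genes was not tested. These lists were chosen with earlier results of the same libraries known, and no difference between lists was tested.

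**Figure D5:**
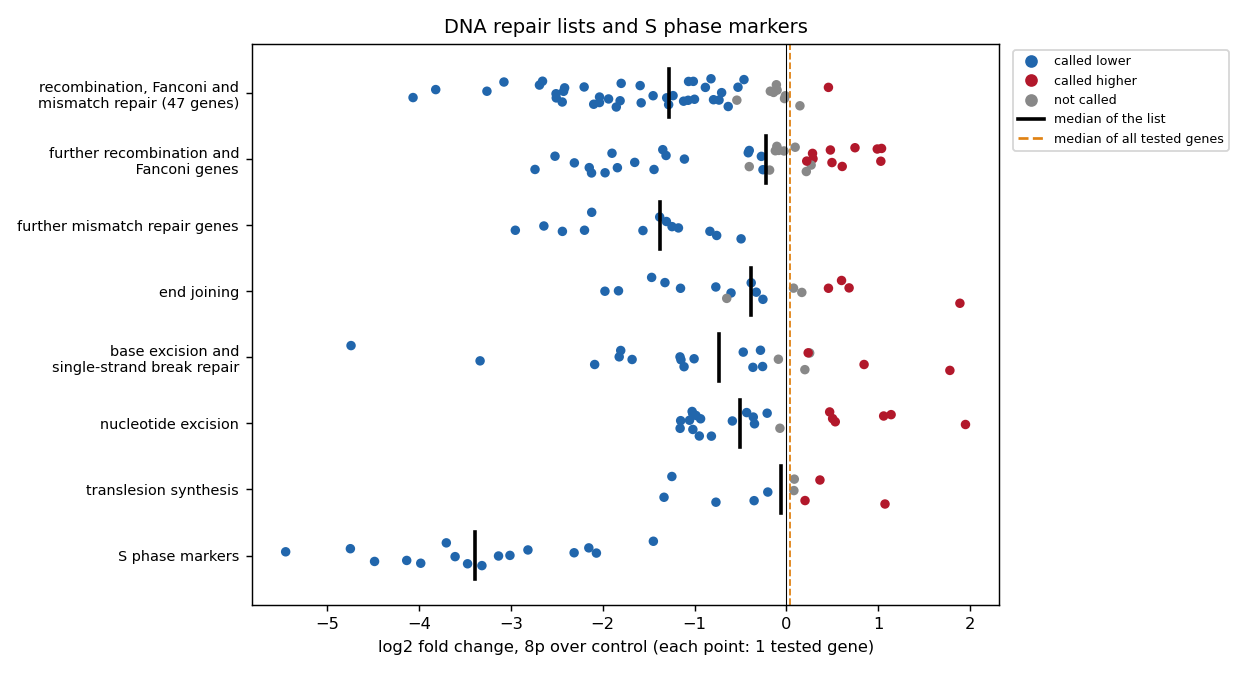
Log2 fold change, 8p over control, of each tested gene in the 47 repair genes, in 6 other repair lists and in the S phase markers; points are genes coloured by call, black lines list medians and the dashed line the median of all genes tested. The median is −1.28 for the 47 genes, −0.51 for nucleotide excision and −3.39 for S phase markers.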

How the data were processed

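The authors deposited raw counts per gene for 6 libraries, with no normalization. Per the submitters' processing notes, HISAT2 2.0.5, featureCounts 1.5.0-p3, DESeq2 1.20.0, edgeR 3.22.5 and the build hg38 were used. The strand setting and the choice between poly(A) capture and ribosomal RNA removal are not given in the sources used here, and the extraction text in the labels describes DNA. Gene identifiers, positions and lengths in the deposited table equal GENCODE 29.

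Counts were tested with edgeR 4.0.16 (R 4.3.3) by TMM factors, filterByExpr, the quasi-likelihood F test on group alone and Benjamini-Hochberg adjustment over 13822 genes. A call needed an adjusted p under 0.05. CPM values use TMM-scaled totals, standard errors are the absolute log2 fold change over the square root of F, and ratios of partner genes add 0.5 counts to each gene. Data were also simulated for 8p against control (13816 genes). The test recovered 50.7% of 67 genes given a log2 change of 0.5, 85.1% of 67 given 1 and 95.5% of 66 given 2. There were 4 false calls among 13621 unchanged genes. The simulation gave every gene the same dispersion and left most genes unchanged, whereas 74.7% of genes tested were called in the data. Its rates therefore need not hold for the data.

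The values of every library were given for the 2 largest changes of each role, the genes not called, ATM and members of the partner pairs whose ratios are given; other genes are given by fold change. The 47 genes and the comparison lists were chosen with earlier results of these data known. Some comparison genes are not reported here. Depth of 14972069 to 23485628 counts limits genes of few counts, such as RAD54B. Alternatives were DESeq2 1.42.0, limma-voom (limma 3.58.1), other scalings and filters, a replicate block, protein-coding genes alone, stricter thresholds and leaving out each library.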

Additional observations from a re-analysis of the deposited data

How the results depend on the processing

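The count of genes called lower among the 47 was 36 to 39 under every alternative on the adjusted p, and 30 with a fall of at least 2-fold required. The 1 gene called higher, ATM, was joined by SLX4 under upper quartile scaling, which gave 2, and a 2-fold requirement gave 0. Over 752 gene-by-alternative values, 725 kept direction and side of the threshold, 10 lost the call, 3 gained it and 14 changed sign. The median log2 fold change of the 47 genes was −1.35 with DESeq2, −1.30 with RLE factors, −1.10 with upper quartile factors, −1.27 with library totals, −1.29 without mitochondrially encoded genes, −1.40 without a filter, −1.25 at 1 CPM in 3 libraries and −1.20 among protein-coding genes. Leaving out 1 library at a time gave −1.37 to −1.28. Upper quartile factors gave 4258 genes lower and 6240 higher over all genes, against 5098 and 5232 with TMM. A 2-fold requirement left 2421 lower and 2883 higher.

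Changes of sign concerned genes that were not called. Upper quartile scaling gave log2 fold changes of 0.086 for XRCC3, 0.18 for MRE11, 0.047 for FANCF, 0.078 for MUS81, 0.17 for MSH3 and 0.012 for PMS2. The 1 CPM filter gave 0.021 for MRE11 and 0.012 for MSH3, and protein-coding genes alone gave 0.074 for MRE11 and 0.064 for MSH3. Leaving out 1 library at a time gave −0.080 to 0.0093 for MRE11, −0.16 to 0.015 for MSH3 and −0.0024 to 0.20 for SLX4. With 5 counts added in place of 0.5, RAD54B/RAD54L differed by −0.31, against −0.88, and RMI2/RMI1 by −0.96, against −1.03. An adjusted p under 0.01 gave 3 translesion genes lower and 2 higher, protein-coding genes alone 3 and 3, and 12 base excision genes lower and 5 higher. A 2-fold requirement left 5 end joining genes lower and 1 higher, 6 nucleotide excision genes lower and 3 higher, and 2 translesion genes lower and 1 higher. In the 250 bases before the start alone, 12.2% of promoters held an E2F octamer. The cause of these shifts was not tested.

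Replicate numbers showed no sign of pairing the samples. Same-numbered deviations correlated at −0.0071, −0.0181 and −0.0432, and no 8p library correlated best with its own number. These correlations cannot show whether the cultures were handled in pairs. With a replicate block 38 of the 47 genes were lower and 1 higher, with a median of −1.29 and 5014 genes lower and 5076 higher over all.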
